A study of Mus musculus with 6 samples.

Results

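Expression of the cytosolic ribosomal protein genes was measured in cartilage of the knee of C57/Bl6 mice at 3 months of age, in 3 wild-type (WT) libraries and 3 from miR-455 null mice. The genes were protein-coding genes whose GENCODE M21 symbol is Rpl or Rps followed by a digit, together with Rplp0, Rplp1, Rplp2 and Rpsa, with pseudogenes named -ps and the Rps6k kinases left out. This gave 86 of 36711 gene identifiers. The 86 comprised 46 canonical large-subunit genes, 31 canonical small-subunit genes, 7 paralogues, the retrogene Rps27rt, and Rps19bp1, which encodes a protein that binds Rps19 and is not part of the ribosome. The null mice carry a CRISPR-Cas9 deletion that removes part of both mature microRNAs, miR-455-3p and miR-455-5p, from every cell, and neither group received a treatment. Each sample pooled cartilage dissected from the tibia and femur of 2 knees, and the labels give the cell type as chondrocyte. Nothing states the sex of the mice, that each library is a different animal, or that WT and null mice were littermates. The p-values therefore reflect how far these libraries differ from each other, which may be technical.

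The values were deposited as normalised counts per gene, and the depth behind them is unknown. They were taken to be abundances normalised for transcript length and between libraries. Total abundance ran from 917819 to 1135956 per library. The libraries held large shares of marrow and blood transcripts. A list of 21 erythroid genes summed to between 26.5% and 27.4% of the total in WT and between 11.6% and 21.8% in null libraries. A list of 20 neutrophil genes summed to between 8.85% and 10.5% in WT and between 8.59% and 20.9% in null. The 16 chondrocyte genes together gave between 0.0284% and 0.0336% of the total in WT and between 0.0382% and 0.0828% in null, and the 10 macrophage genes between 0.0444% and 0.0533% in WT and between 0.0575% and 0.0652% in null. For both of these lists every null library lay above every WT library, and for the erythroid list every null library lay below every WT library. The part of these lists in the results below was not tested. All 16 chondrocyte genes were above 0 in 5 of the libraries, and Matn1, a cartilage matrix protein, was at 0 in WT library 2. The levels below are those of a mixed tissue in which fewer cells of a type and less RNA per cell cannot be told apart.

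The ribosome is assembled from a small subunit, which reads the mRNA, and a large subunit, which joins amino acids. Most ribosomal proteins are present once in each ribosome, while the acidic proteins Rplp1 and Rplp2 form a stalk on Rplp0 that recruits translation factors. Mammalian ribosomal protein mRNAs begin with a 5′ terminal oligopyrimidine (TOP) tract, a C followed by a run of C and T, through which their translation responds to mTORC1 signalling and the binding protein Larp1. Mammalian genomes also hold many processed pseudogenes of ribosomal protein genes, intronless copies made from their mRNAs.

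The TOP tract was read at the annotated RefSeq starts (build GRCm38.p6) because it is the sequence feature that ribosomal protein genes share outside the rule used to choose them. It was searched on the transcribed strand as a C at the start base followed by at least 4 bases that are each C or T. Windows were found for 66 of the 86 genes, 78 windows in all. The tract lay exactly at the start in 14 windows (17.9%), against 2.51% of 32851 RefSeq windows of the same length. It began within 5 bases of the start in 41.0% of the windows of ribosomal protein genes and in 18.3% of all windows. The following 6 windows run from 10 bases before the start to the 20th base from it, with the tract in capitals, and belong to genes whose values are described below.
Rps27 (chr3:90213629-90213658, minus strand): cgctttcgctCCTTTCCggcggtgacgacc
Rps27rt (chr9:114982720-114982749, minus strand): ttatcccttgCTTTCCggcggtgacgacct
Rplp2 (chr7:141447641-141447670, plus strand): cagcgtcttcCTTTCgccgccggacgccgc
Rps15a (chr7:118116128-118116157, minus strand): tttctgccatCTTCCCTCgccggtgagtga
Rpl28 (chr7:4792955-4792984, plus strand): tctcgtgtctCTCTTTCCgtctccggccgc
Rpl15 (chr14:18270967-18270996, minus strand): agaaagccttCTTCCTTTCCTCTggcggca

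The tract was shortest in Rplp2 (5 bases) and longest in Rpl15 (13 bases) among these 6. The windows of Rps27 and of its retrogene Rps27rt share a run of 19 bases. It starts inside the tract of Rps27 and at the start of the tract of Rps27rt, while the bases before it differ. The 14 genes with the tract at the start had a median log2 fold change, null against WT, of -0.18, and the 49 other genes with a window and a tested value had a median of -0.088. The split goes by whether the annotated start falls exactly on a tract. Within 5 bases of the start, 32 of the 78 windows held one, so the 49 genes cannot be read as lacking it. These medians are a description and were not tested. Rpl15, a large-subunit protein, had a mean of 634 ± 98.6 in WT and 570.1 ± 109.8 in null (SD, n = 3), and the groups overlapped.

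Ribosomal protein genes were among the abundant transcripts of every library. Rpl13a, a large-subunit protein, had the highest mean abundance, 4440 over the 6 libraries, with 4356, 3486 and 5509 in WT against 4571, 4468 and 4253 in null. The WT range enclosed all 3 null values. It was followed by Rps27, a small-subunit protein with a zinc-binding fold, at 4486, 3239 and 3662 in WT against 3021, 3012 and 2910 in null, where every null library lay below every WT library. Rplp1 gave 3594, 3106 and 3904 in WT against 3524, 2994 and 2703 in null. Rpl41, a very short basic peptide of the large subunit, gave 3404, 2332 and 2948 in WT against 2803, 2718 and 2559 in null. Rps29, a small zinc-binding protein, gave 2355, 1911 and 3226 in WT against 3014, 2610 and 2577 in null. The groups overlapped for all 3 of these genes, and WT library 3 was the highest for Rplp1 and Rps29.

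At the other end, canonical genes were found at levels far below those of their partners in the same ribosome. The row of Rpl5, which carries the 5S rRNA into the large subunit, held 25.1, 30.1 and 39.9 in WT against 45.8, 26.7 and 21.5 in null. The row of Rpl12, a protein at the base of the stalk, held 36.6, 38.5 and 45.0 in WT against 38.2, 36.4 and 21.8 in null. Across the 77 canonical genes the highest mean was 141 times the lowest, with an SD of 1.12 on the log2 scale, and 4 genes lay below 0.25 of the median abundance of 1107.

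These low rows had near-identical partners elsewhere in the files. When transcripts of pseudogenes, predicted genes and other gene models were matched to the coding sequences (at least 90% identity over at least 50% of the coding sequence), 1037 rows matched one of 79 ribosomal protein genes. Most of these copies were listed with little or no abundance, with 488 at 0 in every library. A small number were abundant: 21 copies with a mean of at least 5, belonging to 19 genes, held 99.0% of the abundance of all copies, and 17 of the 21 were 100% identical to the coding sequence where they aligned. Beside Rpl5, the pseudogene Gm15500 held 993, 807 and 967 in WT against 887, 863 and 841 in null. Beside Rpl12, Gm10275 held 1592, 1265 and 1461 in WT against 1309, 1254 and 1121 in null. For both genes, nearly all of the abundance was therefore listed under a pseudogene name: 96.6% for the Rpl5 family and 97.4% for the Rpl12 family. The reads of a gene and of a copy with the same sequence cannot be told apart by their letters, and the share given to each row is uncertain.

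More abundance stood in copies than in the gene's own row for 11 genes. Besides Rpl5 and Rpl12 these were Rpl27a (87.4% in copies, chiefly Gm7536), Rpl10 (82.4%, Rpl10-ps3), Rps23 (75.8%, Rps23-ps1), Rpl28 (61.7%, Rpl28-ps1), Rpl31 (61.7%, Rpl31-ps8), Rpl37 (59.0%, Rpl37rt), Rpl36a (58.7%, Rpl36a-ps2), Rpl27 (55.2%, Gm11518 and Rpl27-ps3) and Rps12 (53.0%, Rps12-ps3). Gm11518 and Rpl27-ps3 had the same value in each library. Several of these proteins sit close to the functional core of the ribosome: Rpl10 near the peptidyl transferase centre, Rps23 at the decoding centre and Rpl31 at the exit of the peptide tunnel. With the copies added to their parent gene, the range over the 77 canonical genes narrowed from 141-fold to 7.10-fold, from 625 (Rpl21) to 4442 (Rpl13a), the SD fell to 0.635 on the log2 scale, and no gene lay below 0.25 of the median. The plot of levels by rank shows both sets of values.

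**Figure D1:**
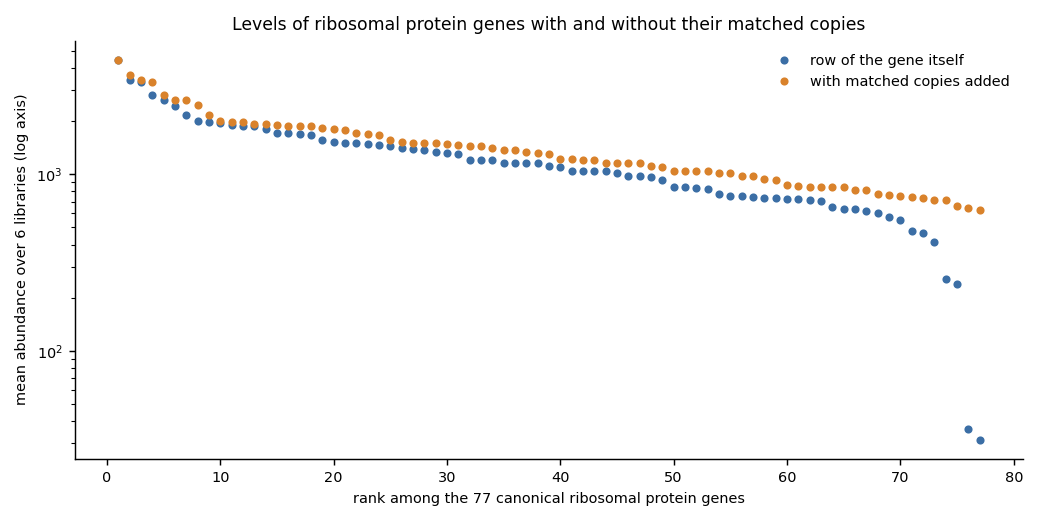
Mean abundance over 6 libraries (vertical, log axis) of the 77 canonical ribosomal protein genes, each series sorted from the highest to the lowest value (rank, horizontal). The values from a gene's own row (blue) drop at the right to 36.1 for Rpl12 and 31.5 for Rpl5, while those with matched copies added (orange) end at 625 for Rpl21.

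The share of a family listed under its copies also varied from library to library. For Rps28, a small-subunit protein, the copy Gm10443 was listed at 0 in WT libraries 1 and 2, at 946 in WT library 3 and at 137, 653 and 665 in null, while Rps28 itself held 1552, 1061 and 1584 in WT against 1469, 1317 and 1343 in null. For Rps7, the copy Gm6472 was listed at 0, 3.69 and 321 in WT against 246, 149 and 150 in null, and Rps7 itself at 919, 796 and 637 in WT against 640, 708 and 648 in null. In both families the copy was at or near 0 in WT libraries 1 and 2 and high in WT library 3. For Rpl37, the copy Rpl37rt held 326, 286 and 794 in WT against 545, 791 and 837 in null, and Rpl37 itself 496, 405 and 468 in WT against 381, 372 and 361 in null. The own row of Rpl37 was lower in every null library, and the sum of both rows was highest in WT library 3.

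Stretches of coding sequence show how little separates these rows. Rpl37 and its chromosome 5 copy Rpl37rt differ at 1 of 291 coding bases, and Rps7 and its chromosome X copy Gm6472 differ at 3 of 582. In the stretches below, differing bases are in capitals and positions are counted from 1 at the first base of the coding sequence, with the base of the ribosomal protein gene first in each substitution. The Rpl37 stretch covers bases 229 to 288 and holds G249A. The Rps7 stretch covers bases 6 to 65 and holds T26G and G48A. The sequences are those of the GENCODE M21 transcripts.
Rpl37: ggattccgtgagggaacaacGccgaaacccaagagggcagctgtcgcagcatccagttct
Rpl37rt: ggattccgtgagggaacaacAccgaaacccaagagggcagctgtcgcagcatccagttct
Rps7: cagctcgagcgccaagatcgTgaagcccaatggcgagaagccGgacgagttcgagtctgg
Gm6472: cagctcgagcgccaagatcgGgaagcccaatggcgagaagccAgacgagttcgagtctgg

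**Figure D2:**
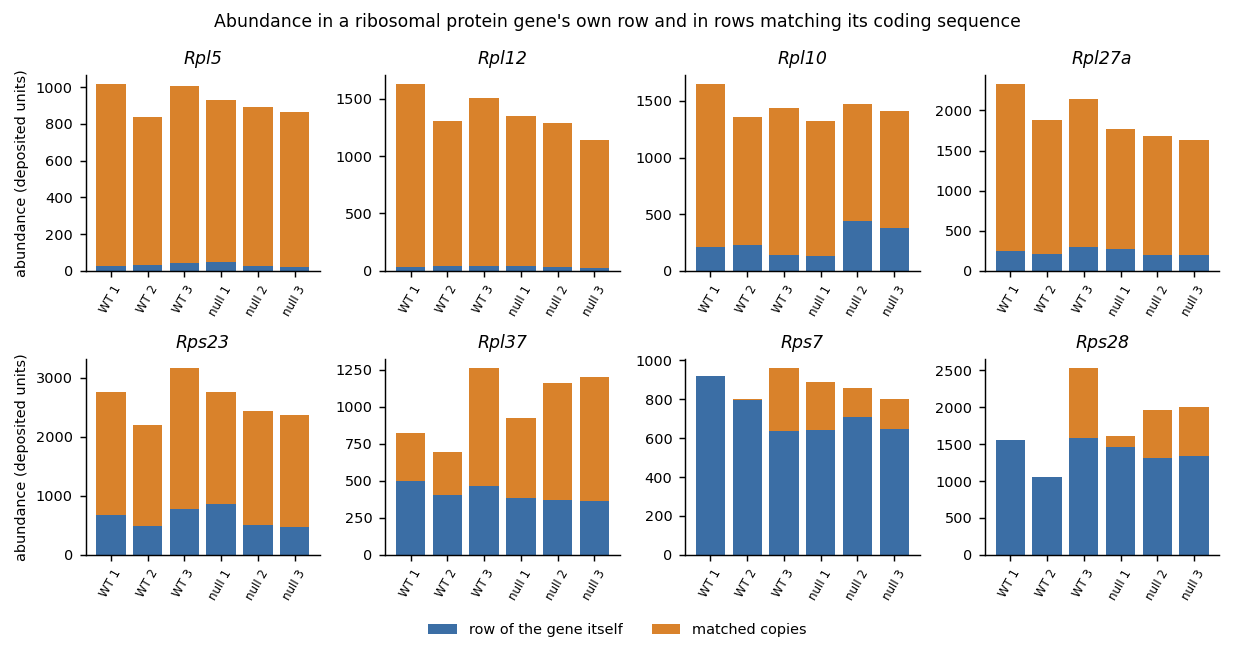
Abundance (vertical, deposited units, from 0) in each of the 6 libraries (horizontal) for 8 ribosomal protein genes, split into the gene's own row (blue) and the rows matched as its copies (orange). Nearly all of Rpl5 and Rpl12 lies in copies, and the copies of Rps7 and Rps28 are at or near 0 in WT libraries 1 and 2.

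The genotypes were then compared gene by gene with limma, over all 9098 genes that reached an abundance of 5 in at least 3 libraries. Of the 86 ribosomal protein genes, 83 passed that filter. The 3 that did not were paralogues: Rpl10l, which is used in the testis, was listed at 0 in each library, Rpl3l, known from striated muscle, lay between 0.667 and 1.96, and Rpl39l, also a testis paralogue, lay between 1.18 and 2.63. No ribosomal protein gene passed an adjusted p of 0.05, where 0.011% of all genes did, and the smallest adjusted p was 0.812 by limma. At an unadjusted p under 0.05, 2 of 83 were lower in null (2.08% of all genes) and 0 were higher (2.88% of all genes). Every null library lay below every WT library for 8 genes, or 9.64%, against 5.09% of all genes, and every null library lay above every WT library for 0, against 5.36% of all genes. The log2 fold change was below 0 for 63 of the 83 genes (75.9%), against 46.7% of all genes.

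The median log2 fold change of the 83 genes was -0.11, beside 0.017 for all genes tested. By subunit, 37 of 46 large-subunit genes and 23 of 31 small-subunit genes were below 0, with medians of -0.13 and -0.074. The sign of the median depended on the scale. With each library scaled to a total of 1000000, the median of all genes moved to 0.13 and that of the ribosomal protein genes to 0.0098, with 39 below 0 and 44 above. The calls at an unadjusted p under 0.05 then turned from 2 lower to 3 higher (Rps15a, Rps16 and Rps3) and 1 lower (Rps27rt), and Rpl36a was no longer among them. The scaling moved both medians together, so that the ribosomal protein genes remained 0.12 below all genes, as against 0.13 on the deposited scale. The number of genes at an unadjusted p under 0.05 also moved with single libraries: it was 0 without WT library 1 or null library 2, 1 without null library 3, 4 without WT library 3, and 5 without WT library 2 or null library 1. The standard errors of the log2 fold changes ran from 0.12 to 0.45 apart from Rps27rt, with a median of 0.16 over the 83 genes.

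**Figure D3:**
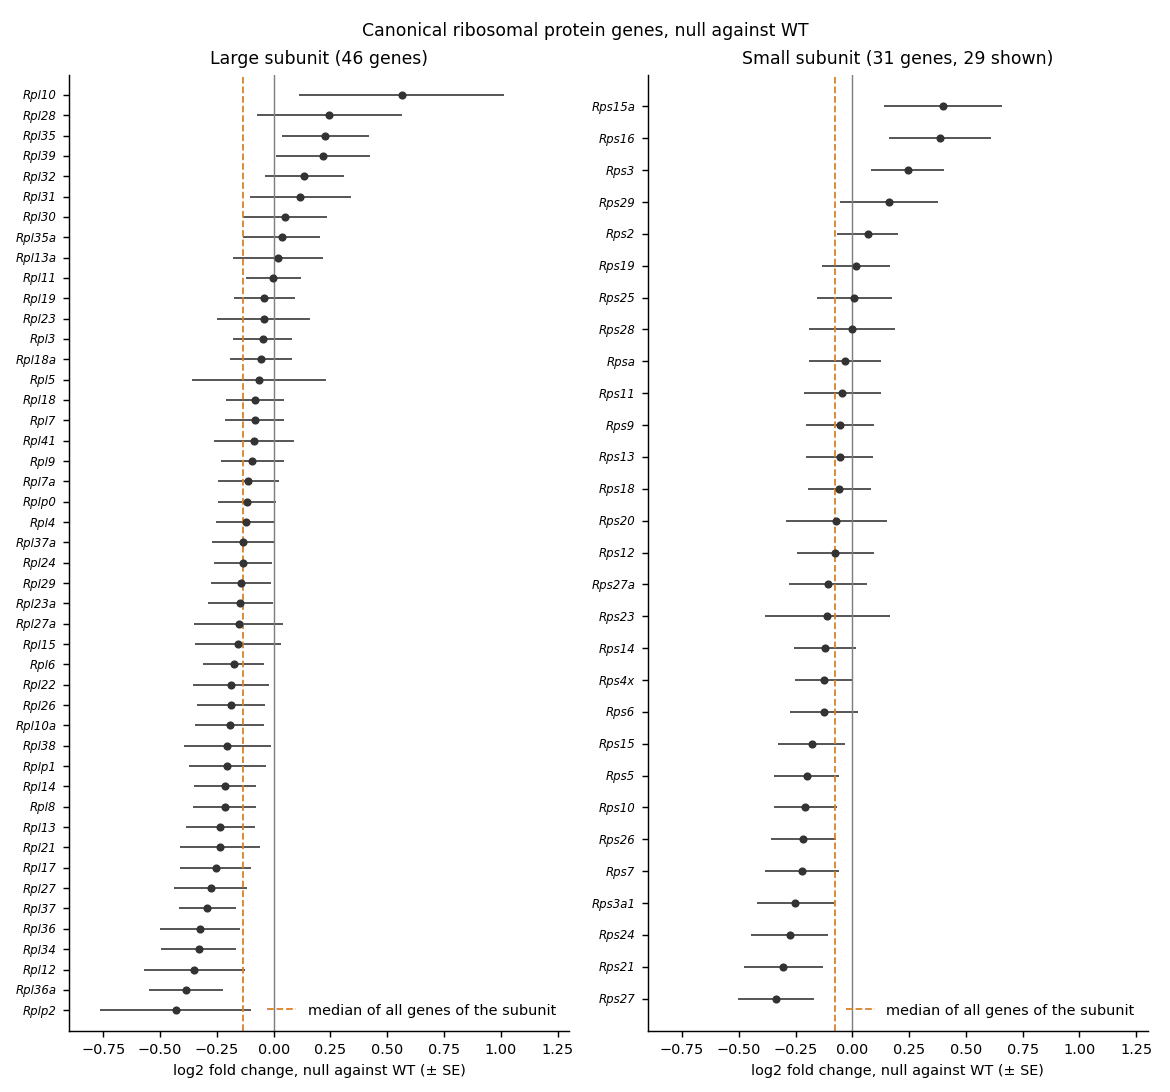
Log2 fold change of null against WT (horizontal, points, with the standard error from limma as bars) for the canonical large-subunit genes (left, 46) and small-subunit genes (right, 31, of which 2 are not drawn), sorted by value. The dashed lines mark the medians of -0.13 and -0.074 over all genes of each subunit, and 37 of 46 and 23 of 31 genes are below 0.

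The ribosomal stalk held the largest negative fold change among the canonical genes. Rplp2 gave 2421, 1771 and 3208 in WT against 2794, 1433 and 1404 in null, a log2 fold change of -0.43 (SE 0.33). The groups overlapped, because null library 1 lay above 2 of the WT libraries. Its partner Rplp1 had a log2 fold change of -0.20 (SE 0.17), and Rplp0, on which both sit, gave 1338, 1151 and 1248 in WT against 1185, 1166 and 1094 in null. The own row of Rpl12, at the base of the same stalk, had -0.35 (SE 0.22). None of these passed an unadjusted p of 0.05. Single libraries moved these values: Rplp2 ran from -0.76 without null library 1 to -0.22 without WT library 3, and Rpl12 from -0.49 without null library 1 to -0.097 without null library 3.

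In the rest of the large subunit, Rpl36a was the only canonical gene at an unadjusted limma p under 0.05. Rpl36a lies on chromosome X (134585654 to 134588062) and encodes a protein near the tRNA exit site. It gave 950, 825 and 771 in WT against 772, 602 and 582 in null, a log2 fold change of -0.39 (SE 0.16; unadjusted p = 0.0485, adjusted p = 0.812 by limma). The highest null value just exceeded the lowest WT value. With its copies, above all Rpl36a-ps2 on chromosome 3, the family summed to 2295, 1827 and 2155 in WT against 1791, 1575 and 1265 in null, and the log2 fold change was -0.45 (SE 0.18; unadjusted p = 0.0406, adjusted p = 0.811 by limma). On the summed values the null libraries all lay below the WT libraries. Rpl34 (log2 fold change -0.33, SE 0.16) and Rpl37 (-0.29, SE 0.13) also had no overlap between the groups on their own rows, and neither passed an unadjusted p of 0.05. On own rows, these were the 2 of 46 canonical large-subunit genes (4.35%) with every null library lower, against 5.09% of all genes. For 0 of the 46 was every null library higher, against 5.36% of all genes. For Rpl37 the direction turned with its copies: the family sums of 822, 691 and 1263 in WT against 927, 1163 and 1199 in null overlapped, with a log2 fold change of 0.28 (SE 0.24).

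The largest positive fold change was that of Rpl10, on chromosome X. Its row held 208, 227 and 144 in WT against 132, 440.5 and 376 in null, a log2 fold change of 0.56 (SE 0.45) that ran from 0.24 without null library 2 to 1.10 without null library 1. The autosomal copy Rpl10-ps3, with the same coding sequence, held 1440, 1131 and 1296 in WT against 1187, 1034 and 1034 in null, so that null libraries 2 and 3 were high in one row and low in the other. The sum over the family was 1650, 1360 and 1441 in WT against 1320, 1477 and 1411 in null, and its log2 fold change was -0.078 (SE 0.14). Rpl28 gave 480, 335 and 804 in WT against 748, 550 and 525 in null (log2 fold change 0.25, SE 0.32), and its family sum had 0.046 (SE 0.20). WT library 3 was the highest and WT library 2 the lowest for Rpl28.

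In the small subunit, 5 of 31 canonical genes (16.1%) had no overlap between the groups with the null libraries lower, against 5.09% of all genes, and 0 had none with the null libraries higher, against 5.36%. Rps27 had the largest difference, a log2 fold change of -0.34 (SE 0.17). The others included Rps24 (-0.28, SE 0.17), Rps26 (-0.22, SE 0.14) and Rps10 (-0.21, SE 0.14), of which Rps26 lies where the mRNA leaves the ribosome. None of the 5 passed an unadjusted p of 0.05. The positive end was made up of Rps15a, at 745, 575 and 1137 in WT against 880, 1126 and 1133 in null (log2 fold change 0.40, SE 0.26), Rps16, at 858, 593 and 1093 in WT against 1068, 1098 and 1062 in null (0.39, SE 0.22), and Rps3, a protein of the mRNA entry channel, at 894, 803 and 1085 in WT against 974, 1164 and 1139 in null (0.24, SE 0.16). Without WT library 2 the log2 fold change was 0.17 for Rps15a and 0.15 for Rps16, and without WT library 3 it was 0.67 and 0.59. In all 3, WT library 3 lay with the null libraries rather than with the other WT libraries.

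Several members with roles outside peptide synthesis had values that overlapped between the genotypes, and they were picked for those roles. Rps6, the small-subunit protein phosphorylated by S6 kinases below mTORC1, gave 1854, 1413 and 1617 in WT against 1422, 1552 and 1484 in null. Rpl11, which with Rpl5 binds and inhibits the p53 ubiquitin ligase Mdm2, gave 1001, 915 and 1006 in WT against 928, 1012 and 979 in null, and its SDs of 51.0 and 42.4 on the abundance scale were small against its level. Null values of both genes fell inside or next to the WT range. Rpsa, which is also known as a laminin receptor, gave 1187, 975 and 1356 in WT against 1211, 1086 and 1117 in null. Rps27a, made as a fusion to ubiquitin, gave 1353, 1154 and 1542 in WT against 1460, 1120 and 1182 in null. WT library 2 was the lowest for Rps6, Rpl11 and Rpsa, and WT library 3 was the highest for Rpsa and Rps27a.

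Rpl38, a small protein of the large subunit known for its part in patterning the mouse axial skeleton, gave 1757, 1271 and 1669 in WT against 1624, 1226 and 1225 in null. Null libraries 2 and 3 lay below all WT libraries and null library 1 lay among them. Rps19, the first gene found mutated in human Diamond-Blackfan anaemia, gave 1622, 1238 and 1547 in WT against 1465, 1526 and 1435 in null, with all null values inside the WT range. Rps19bp1, the binding partner of Rps19 that the symbol rule takes in, was far lower, at 18.4, 18.1 and 15.6 in WT against 20.8, 21.3 and 13.7 in null. Over the 83 genes tested, the median ratio of the highest to the lowest library was 1.42, and the ratio was above 2 for 6 genes.

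The largest fold change of all was that of the retrogene Rps27rt, an intronless copy of Rps27 on chromosome 9 (114982366 to 114982739). Its row held 60.8, 29.1 and 16.4 in WT against 3.21e-05, 6.19 and 15.2 in null, a log2 fold change of -3.06 (SE 1.20; unadjusted p = 0.0384, adjusted p = 0.812 by limma). It was -1.61 without null library 1 and -4.10 without null library 3. Rps27rt was no longer at an unadjusted p under 0.05 with a pseudocount of 0.1 in place of 0.5. The same held with the replicate number as a block and with no filter on low values. The values ran down to almost 0 in null library 1, and WT library 3 and null library 3 were close to each other. The coding sequences of Rps27rt and Rps27 are the same at all 252 bases, so the share of their reads given to each row is uncertain. Together the rows gave 4547, 3268 and 3679 in WT against 3021, 3019 and 2926 in null, a log2 fold change of -0.34 (SE 0.17), the same as for Rps27 alone to 2 decimals.

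Over all families, adding the copies to their parents changed the sign of 4 of 82 genes. Rpl10 went from positive to negative, Rpl37 from -0.29 to 0.28 (SE 0.24), Rps20 from -0.070 to 0.017 (SE 0.19), and Rps28 from a value next to 0 to 0.20 (SE 0.31). The median of the summed families was -0.091, 60 of 82 lay below 0, and 1 gene, Rpl36a, was at an unadjusted p under 0.05. This comparison was chosen after the values had been seen.

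The libraries resembled each other in 3 pairs, 2 within a genotype and 1 that crossed it. For 82 ribosomal protein genes, leaving out Rps27rt, the SD over genes of the log2 difference between 2 libraries was 0.123 for WT 3 and null 1, 0.126 for null 2 and null 3, and 0.15 for WT 1 and WT 2. The other 12 of the 15 pairs had SDs of 0.274 or more. The same 3 pairs were closest on the family sums (0.124, 0.106 and 0.106, against 0.212 or more). Rps27rt was at 3.21e-05 in null library 1, and with it kept in (83 genes) WT 3 and null 1 stood at 0.56. WT 1 and WT 2 (0.17) and null 2 and null 3 (0.19) were then the closest. Over all 9098 genes the pair of WT 3 and null 1 (0.382) and that of WT 1 and WT 2 (0.359) were again the closest, whereas null 2 and null 3 (0.456) were no closer than WT 3 and null 2 (0.453). Examples of the pattern were Rplp2 and Rpl28, both highest in WT 3 and null 1. The labels name no batch, and whether preparation or sequencing differed between the pairs was not tested.

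**Figure D4:**
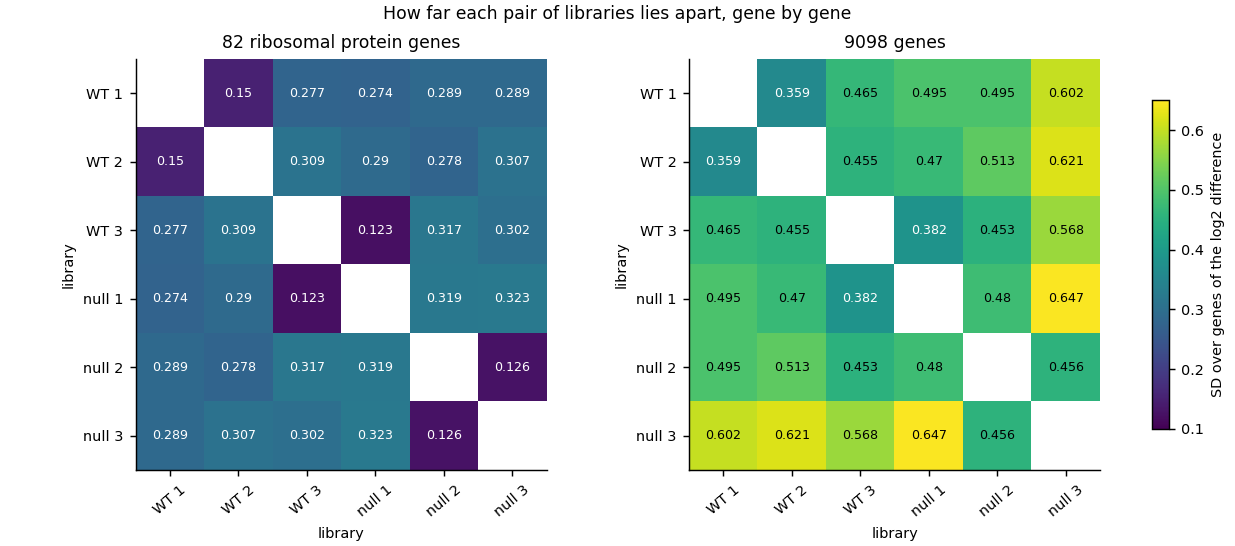
SD over genes of the log2 difference between each pair of libraries (colour and printed value; rows and columns are the 6 libraries), for 82 ribosomal protein genes on the left and for all 9098 genes tested on the right. On the left the 3 darkest pairs, WT 1 with WT 2, WT 3 with null 1 and null 2 with null 3, lie between 0.123 and 0.15, and every other pair lies at 0.274 or above.

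As a share of the library, ribosomal protein genes summed to 9.55%, 9.22% and 10.2% of total abundance in WT against 10.8%, 9.48% and 9.07% in null. The groups overlapped, with means of 9.65% ± 0.480 and 9.77% ± 0.879 (SD, n = 3). With all matched copies the means were 11.2% ± 0.635 and 11.4% ± 0.931. The ratio of large-subunit to small-subunit abundance ran from 1.13 to 1.19 over the 6 libraries, with a mean of 1.18 ± 0.0152 in WT and 1.16 ± 0.0317 in null. When the erythroid, neutrophil, B cell and skeletal muscle lists were left out of the total, the shares became 15.4%, 14.5% and 15.9% in WT against 15.5%, 14.2% and 13.4% in null, and the order of the group means turned (15.2% ± 0.690 and 14.4% ± 1.03). Null library 3, which had the lowest share of ribosomal protein genes, also had the lowest erythroid share (11.6%) and the highest neutrophil share (20.9%), and was the lowest of the 6 libraries for 41 of the 83 genes. WT library 1 was the highest for 44. The part of blood and marrow content in these values was not tested.

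Paralogues give a measure within each library that does not depend on its scale. For 7 pairs with values above 0 in each library, the log2 ratio of the paralogue to the canonical gene was compared by two-sided exact permutation tests, for which the smallest possible p is 0.1. Rps27l, a p53-responsive relative of Rps27, held 358, 287 and 313 in WT against 317, 359 and 302 in null. Its ratio to Rps27 was -3.65, -3.50 and -3.55 in WT against -3.25, -3.07 and -3.27 in null on the log2 scale, a difference of 0.37 with no overlap (exact p = 0.1, adjusted over 7 pairs 0.35). Rps27l thus made up between 7.38% and 8.13% of the sum of Rps27l and Rps27 in WT and between 9.40% and 10.7% in null. Rps27l itself had a log2 fold change of 0.033 (SE 0.14).

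Rpl36al, an intronless relative of Rpl36a, held 476, 403 and 476 in WT against 483, 402 and 396 in null, with a log2 fold change of -0.083 (SE 0.14). Its log2 ratio to Rpl36a was -0.998, -1.03 and -0.69 in WT against -0.68, -0.58 and -0.55 in null, a difference of 0.30 with no overlap (exact p = 0.1, adjusted 0.35). WT library 3 and null library 1 lay next to each other here too. This ratio used the own row of Rpl36a, while 58.7% of its family stood in copies. A ratio with the copies added was not computed. The other 5 pairs overlapped. The differences were 0.15 for Rpl22l1 and Rpl22 (exact p = 0.3), 0.24 for Rps4l and Rps4x (exact p = 0.3), 0.22 for Rpl7l1 and Rpl7 (exact p = 0.4), 0.35 for Rpl3l and Rpl3 (exact p = 0.9) and 0.016 for Rpl39l and Rpl39 (exact p = 1). Rpl22l1 was the most abundant of these paralogues relative to its partner, at 18.2% to 21.4% of the sum of Rpl22l1 and Rpl22. Rpl3l and Rpl39l made up at most 0.246% and 0.345% of the sums of their pairs. Rps4l is annotated as a transcribed pseudogene and entered only as a partner in this comparison.

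**Figure D5:**
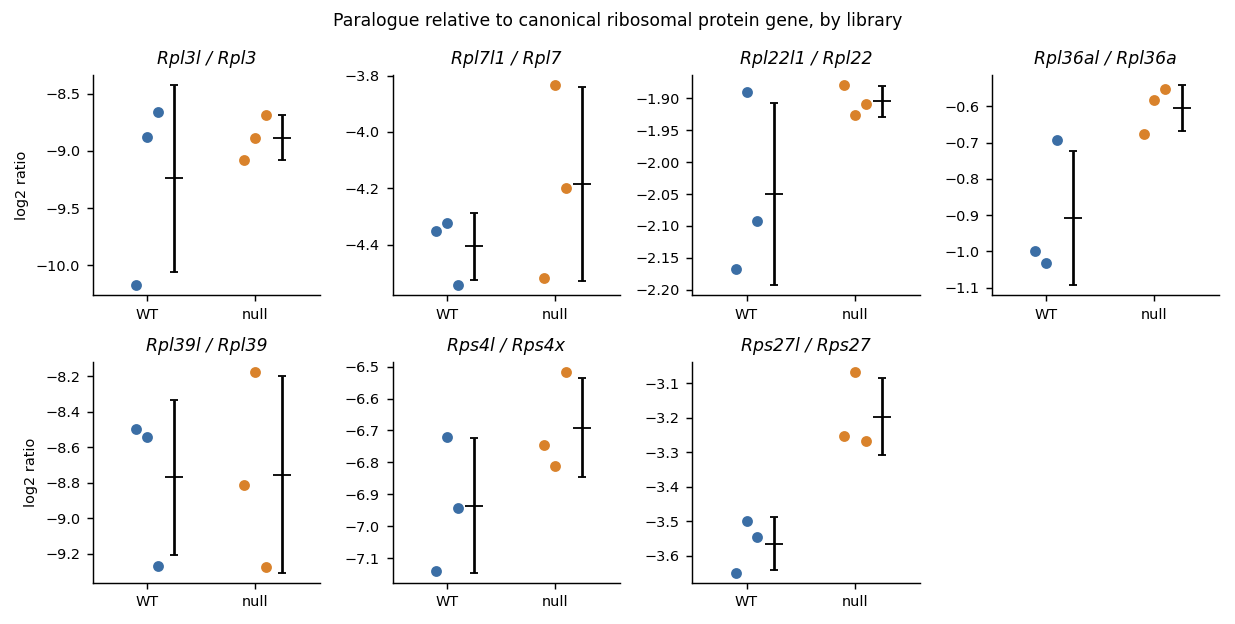
Log2 ratio of a paralogue to its canonical ribosomal protein gene (vertical, a separate scale in each panel) in the 3 WT (blue) and 3 null (orange) libraries, with the mean and SD beside the points. The groups do not overlap for Rpl36al to Rpl36a (-1.03 to -0.69 in WT, -0.68 to -0.55 in null) or for Rps27l to Rps27 (-3.65 to -3.50 and -3.27 to -3.07), and they overlap in the other 5 panels.

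Genes of the same pathway were read from the same fit. The ribosomal protein Fau, which is made as a fusion to a ubiquitin-like protein and falls outside the symbol rule, had a log2 fold change of -0.18 (SE 0.17). Of 21 other TOP mRNAs, which encode mainly translation factors, 19 were below 0 (90.5%, against 46.7% of all genes). At an unadjusted p under 0.05, 0 were lower (2.08% of all genes) and 0 higher (2.88% of all genes). Their median was -0.052, which was 0.0060 without null library 3 and 0.067 with libraries scaled to a total of 1000000. Eef1a1, the elongation factor that delivers aminoacyl-tRNA, had -0.053 (SE 0.15), and Tpt1, another classical TOP mRNA, gave 2996, 2382 and 3205 in WT against 3047, 1993 and 2026 in null, with WT library 3 and null library 1 the highest, as for Rplp2.

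Of 16 tested regulators of TOP mRNAs, 6 were below 0 (37.5%, against 46.7% of all genes), with a median of 0.055. All null libraries lay above all WT libraries for 2 (5.36% of all genes) and below them for 0 (5.09% of all genes). At an unadjusted p under 0.05, 0 were lower in null (2.08% of all genes) and 1 was higher (2.88% of all genes). That gene was Eif4e, the cap-binding factor held back by 4E-BP proteins. Eif4e gave 59.2, 62.3 and 60.2 in WT against 75.2, 86.2 and 79.0 in null, a log2 fold change of 0.40 (SE 0.11; unadjusted p = 0.0069, adjusted p = 0.812 by limma). The groups did not overlap, and it did not pass the adjusted threshold. Rheb, the GTPase that activates mTORC1, gave 39.9, 35.8 and 45.3 in WT against 46.1, 51.3 and 51.0 in null (log2 fold change 0.30, SE 0.12; unadjusted p = 0.0502 by limma), also without overlap.

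Ribosome biogenesis genes (50 tested) had a median of -0.028, which was 0.021 without WT library 3 and 0.051 without null library 3. Of these genes, 31 were below 0 (62.0%, against 46.7% of all genes). At an unadjusted p under 0.05, 0 were lower (2.08% of all genes) and 0 higher (2.88% of all genes). Polr1a, the largest subunit of RNA polymerase I, gave 8.79, 7.27 and 7.58 in WT against 7.67, 15.3 and 20.5 in null (log2 fold change 0.74, SE 0.33), with null library 1 at the WT level; it was 1.12 without that library and 0.44 without null library 3. Among 77 tested mitochondrial ribosomal protein genes, which serve the separate ribosome of that organelle, 51 (66.2%, against 46.7% of all genes) were below 0 with a median of -0.066. At an unadjusted p under 0.05, 5 of the 77 were lower (2.08% of all genes) and 0 higher (2.88% of all genes), and none passed the adjusted threshold. All null libraries lay below all WT libraries for 10 of the 77 (12.987%, against 5.09% of all genes). They lay above all WT libraries for 1 (5.36% of all genes). The share with the null libraries lower was thus not smaller than the 9.64% of the cytosolic ribosomal protein genes. Mrpl52 gave 192, 180 and 169 in WT against 150, 139 and 113 in null (log2 fold change -0.43, SE 0.14; unadjusted p = 0.0172, adjusted p = 0.812 by limma), with every null library below every WT library. The list of snoRNA host genes was not analysed here.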

How the data were processed

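Cartilage RNA from 3 WT and 3 miR-455 null samples was sequenced. The submitters' processing notes name FastQC, Trim Galore, kallisto, sleuth and build mm10; no version is stated. Per gene, the authors deposited a signal of 0 or above under the name normalised counts. It is not whole numbers and was taken to be length-normalised and scaled between libraries, so no count test or counting interval was used. The authors' mapping statistics were not used. The files were joined by Ensembl identifier, and GENCODE M21 named 35866 of 36711.

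Genes with at least 5 in at least 3 libraries (9098) were tested on log2(signal + 0.5) with limma 3.58.1 in R 4.3.3 (trended prior, genotype as the only term, Benjamini-Hochberg over all genes kept), a procedure checked on simulated data. The pseudocount makes changes of low genes look smaller. Paralogue ratios were compared by exact permutation (SciPy 1.17.1). Copies were matched with BLAST+ 2.17.0. Figures were drawn with matplotlib 3.10.9.

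The genes and lists were chosen with earlier results of these data known. Named genes were those at an unadjusted p under 0.05, the 5 highest and lowest by level, the 5 largest rises and falls, both genes of each paralogue pair, genes removed by the filter and Rps19bp1. From related lists, they were the 2 with the smallest p and the 2 most abundant. Genes named for their copies, for groups that did not overlap, for their roles or for their values by library were chosen after their values were seen. Alternatives covered pseudocounts, filters, scalings, the variance prior, a replicate block and the omission of single libraries. Some genes are not reported here by name but remain in the counts.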

Additional observations from a re-analysis of the deposited data

How the results depend on the processing

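No ribosomal protein gene passed the adjusted threshold under any alternative run. Of 918 values for 55 named genes, 869 kept their direction and 49 turned, none passing the threshold. The genes at an unadjusted p under 0.05 numbered 2, but 1 with no filter on low values, 1 with a pseudocount of 0.1, 3 with an abundance minimum of 1, with median-ratio scaling, with scaling without the marrow and muscle lists or with an untrended prior, 1 with copies summed into their parent (an alternative chosen after seeing the data), 4 with libraries scaled to a total of 1000000, and 0 to 5 when a library was left out. These were not always the same genes: Rpl37 alone was counted with no filter, and Rpl37, Rps27 and Rps27rt with scaling without marrow and muscle. With scaling to 1000000 the medians were 0.0098 for ribosomal protein genes, 0.067 for other TOP mRNAs, 0.17 for TOP regulators, 0.086 for ribosome biogenesis and 0.052 for mitochondrial ribosomal proteins. Log2 fold changes turned positive with it for Eef1a1 (0.066), Ncl (0.038), Polr1d (0.018), Rpl22l1 (0.078), Rpl3 (0.072), Rpl36al (0.037), Rpl41 (0.032), Rpl5 (0.053), Rpl7 (0.035), Rps12 (0.045), Rps20 (0.049) and Rps23 (0.0098). Relative to the median of the ribosomal protein genes in each library, they turned for Rpl22l1 (0.039), Rpl3 (0.033), Rpl5 (0.016), Rps12 (0.0058) and Rps20 (0.010), and with copies summed for Rpl10 (-0.078), Rpl37 (0.28) and Rps20 (0.017). The share of ribosomal protein genes, null minus WT, was 0.120 percentage points, and -0.874 with marrow and muscle lists left out of the total. The ratio of Rpl39l to Rpl39 turned with a pseudocount of 0.5 (-0.030). The causes of these moves were not tested.

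Leaving out single libraries turned the sign for the following genes, with these ranges of the log2 fold change: Akt1 -0.044 to 0.37, Eef1a1 -0.13 to 0.027, Ncl -0.15 to 0.045, Rpl13a -0.15 to 0.18, Rpl22l1 -0.17 to 0.052, Rpl28 -0.051 to 0.58, Rpl3 -0.13 to 0.0037, Rpl31 -0.12 to 0.29, Rpl39 -0.0018 to 0.39, Rpl41 -0.23 to 0.038, Rpl5 -0.37 to 0.17, Rpl7l1 -0.037 to 0.28, Rps12 -0.23 to 0.021, Rps19bp1 -0.034 to 0.28, Rps20 -0.26 to 0.089, Rps23 -0.38 to 0.049, Rps27l -0.042 to 0.12 and Rps29 -0.015 to 0.36. The ratios ran from -0.27 to 0.28 for Rpl39l and from -0.11 to 0.64 for Rpl3l. The median ran from -0.19 to -0.064 for ribosomal protein genes, from -0.11 to 0.0060 for other TOP mRNAs and from -0.10 to 0.051 for ribosome biogenesis.

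Deviations of same-numbered libraries from their group means correlated at -0.142, -0.0140 and -0.0369, so same-numbered libraries did not deviate together. With so few libraries, these values cannot decide whether samples were collected in pairs. A fit with the replicate block gave 1 ribosomal protein gene at an unadjusted p under 0.05 and 0 past the adjusted threshold.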

Other observations

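The row of Gm45778, matched to Rpl39 at 91.3% identity, was listed at 2.52, 3.11 and 4.27 in the WT libraries and at 0 in each null library. It was below the abundance minimum of the main comparison. With a minimum of 1 in place of 5 its adjusted p was 0.0267 by limma, and with no filter 0.0751, so its call depends on that setting. It was named after its values were seen.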
